A study of Homo sapiens with 4 samples.

Results

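Replication-dependent histone genes encode the histones that package newly made DNA. They were taken here as the protein-coding genes in the deposited peak table whose symbol begins with HIST1, HIST2, HIST3 or HIST4, and were grouped as H1, H2A, H2B, H3 and H4. The table listed 26819 peaks in 7550 genes, of which 24754 peaks in 6679 genes were protein-coding, and 101 peaks in 25 genes were those of histone genes. RIP-seq of YTHDF1, a cytoplasmic reader of N6-methyladenosine (m6A) on RNA, was performed in SNU638, an established gastric cancer cell line, to find the RNAs it holds when cells respond to IFN-γ (interferon-γ). All 4 libraries came from cells that overexpressed YTHDF1, spent 24 h in serum-free medium and a further 24 h with IFN-γ at 10 ng/ml, with 2 libraries of RNA pulled down with the protein (IP-YTHDF1) and 2 of the Input. Per the methods, the pull-down used an antibody to FLAG, a tag on the introduced protein, so the RNAs are those held by a protein made in excess. No cells without IFN-γ and none without the added YTHDF1 belonged to the 2 groups, and the values below therefore describe 1 state and no response to the cytokine.

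Each listed peak is a window of 50 bp with a signal value, a p-value and a q-value, 1 of each and with no library named. The study calls its protein-coding peaks a union over the replicates, but the number of genes it gives differs from that listed here. Whether both peak sets are the same is not known, and a listed window and its values may rest on a single replicate. No source used here states the scale of these signal values, and 3 of the histone windows had values under 1, so it is read here as a score per window and not as a fold of IP-YTHDF1 over Input. With no value per library, the spread between replicates and the depth behind each window are unknown, and no test of a difference was run. A gene that is not listed may be unbound or may have too little RNA to be scored. In a bulk culture, few cells in S phase and little histone RNA per cell cannot be told apart. Of the markers looked up to check the cell type, EPCAM, KRT8, KRT18 and KRT19 of epithelial cells were listed and CDH1 was not, and 0 of 3 white blood cell markers and 0 of 3 fibroblast markers were listed.

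Histone genes of this kind lie in clusters, have no introns in their main transcripts, and are switched on together as cells enter S phase. Their mRNAs mostly end in a short stem-loop that is bound by SLBP instead of a poly(A) tail, and they are degraded quickly when DNA synthesis stops. The core histones H2A, H2B, H3 and H4 form the spool of the nucleosome, and the linker histone H1 sits where the DNA enters and leaves it. The libraries were depleted of ribosomal RNA instead of being selected on poly(A), and mRNAs without a tail could therefore be sequenced.

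Because the family is built on shared control regions, the sequences between or upstream of the genes with the most telling windows are shown first. They were read from the RefSeq promoter table on GRCh38.p14 and cover only bases before the transcript starts. Capitals mark 3 motifs, each searched on both strands. The octamer is spelled ATTTGCAT and reads as ATGCAAAT when it lies on the opposite strand. The CCAAT box reads as ATTGG in that case, and the TATA box letters TATAA read as TTATA, with which they can overlap. The octamer is bound by OCT1, a factor known for driving H2B genes. The stretch between HIST3H2A and HIST3H2BB is chr1:228457874-228458102 on the plus strand, that between HIST1H2BC and HIST1H2AC is chr6:26123927-26124171 on the plus strand, and that between HIST1H2BJ and HIST1H2AG is chr6:27132796-27133042 on the plus strand. These 3 are shown because they are the divergent pairs found in which both genes were listed. The stretch upstream of HIST2H2BF is chr1:149812371-149812620 on the minus strand and belongs to the gene with the strongest window. That upstream of HIST1H2AL is chr6:27865067-27865316 on the plus strand and belongs to the gene in which windows assigned to HIST1H2BN lay. That upstream of HIST1H4H is chr6:26285535-26285784 on the minus strand and belongs to the strongest H4 gene.
HIST3H2A and HIST3H2BB: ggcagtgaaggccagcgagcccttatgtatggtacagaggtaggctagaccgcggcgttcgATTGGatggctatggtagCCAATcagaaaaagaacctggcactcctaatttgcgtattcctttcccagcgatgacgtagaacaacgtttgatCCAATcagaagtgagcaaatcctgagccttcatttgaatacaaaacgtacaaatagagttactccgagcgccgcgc
HIST1H2BC and HIST1H2AC: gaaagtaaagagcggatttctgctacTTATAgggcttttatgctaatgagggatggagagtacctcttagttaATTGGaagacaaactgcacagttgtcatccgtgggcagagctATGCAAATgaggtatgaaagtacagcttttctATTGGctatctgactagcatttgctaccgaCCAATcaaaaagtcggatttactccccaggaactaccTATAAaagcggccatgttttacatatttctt
HIST1H2BJ and HIST1H2AG: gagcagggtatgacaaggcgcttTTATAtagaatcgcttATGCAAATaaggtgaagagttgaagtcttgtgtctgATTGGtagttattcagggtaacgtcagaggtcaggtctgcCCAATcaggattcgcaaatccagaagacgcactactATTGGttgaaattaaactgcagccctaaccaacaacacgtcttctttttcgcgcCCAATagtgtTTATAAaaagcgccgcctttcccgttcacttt
HIST2H2BF: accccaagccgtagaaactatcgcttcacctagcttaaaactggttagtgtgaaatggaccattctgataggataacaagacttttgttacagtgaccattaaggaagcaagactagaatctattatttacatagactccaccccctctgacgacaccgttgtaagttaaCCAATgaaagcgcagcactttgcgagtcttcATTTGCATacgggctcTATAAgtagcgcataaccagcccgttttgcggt
HIST1H2AL: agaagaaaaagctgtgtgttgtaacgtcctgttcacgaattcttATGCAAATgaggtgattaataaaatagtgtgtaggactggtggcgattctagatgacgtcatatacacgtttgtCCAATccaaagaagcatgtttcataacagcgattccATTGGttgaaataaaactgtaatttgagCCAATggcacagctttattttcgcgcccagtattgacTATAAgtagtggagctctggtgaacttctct
HIST1H4H: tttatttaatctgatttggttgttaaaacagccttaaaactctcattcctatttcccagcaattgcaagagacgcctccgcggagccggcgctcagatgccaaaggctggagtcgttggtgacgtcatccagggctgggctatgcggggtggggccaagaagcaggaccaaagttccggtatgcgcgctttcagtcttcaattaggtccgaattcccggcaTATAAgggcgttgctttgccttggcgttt

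The stretches shared by HIST1H2BC with HIST1H2AC and by HIST1H2BJ with HIST1H2AG each held 1 octamer, and the stretch between HIST3H2A and HIST3H2BB held none but had 3 CCAAT boxes. The region before HIST1H4H held 1 TATA box, no octamer and no CCAAT box. Over the 250 bases upstream of each start, the octamer letters stood in 14 of 18 H2B promoters, 11 of 16 H2A promoters, 1 of 13 H3 promoters and none of the 13 H4 or 6 H1 promoters, beside 1.63% of all 35116 promoters. CCAAT stood in all 6 H1, 16 H2A, 18 H2B and 13 H3 promoters but in 3 of 13 H4 promoters, beside 32.0% of all promoters. TATAA stood in 5 of 6 H1, 15 of 16 H2A, 17 of 18 H2B, 13 of 13 H3 and 11 of 13 H4 promoters, beside 18.9% of all. The H1 box, spelled AAACACA and read as TGTGTTT on the opposite strand, stood in 6 of 6 H1 promoters and in no core histone promoter searched, beside 4.82% of all. The octamer share was 10 of 25 (40%) among listed and 16 of 41 (39.0%) among unlisted histone genes, which are close values. For CCAAT the counts were 22 of 25 and 34 of 41, and for TATAA 22 of 25 and 39 of 41. The starts of divergent pairs lay 193 to 247 bases apart, so the 250 bases searched for both partners overlap. A motif between them can count for both genes, and identical copies such as HIST2H2AA3 and HIST2H2AA4 are each counted. The motif counts are therefore not separate observations. Promoter sequence was given for 66 of the 71 histone genes, and a match of letters is a description of the window searched.

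RefSeq holds 71 protein-coding genes that carry or once carried such a HIST symbol, and 25 of them (35.2%, Wilson 95% interval 25.1 to 46.8) had a listed peak, beside 31.8% of all 20052 protein-coding genes. A peak with a signal value of at least 2 was listed in 16 of 71 (22.5%), beside 22.0% of all protein-coding genes. The histone genes were thus listed at about the share of protein-coding genes as a whole. The intervals here and below cover counting error only. By class, 11 of 18 H2B genes (61.1%), 5 of 15 H4 genes (33.3%), 5 of 17 H2A genes (29.4%) and 4 of 15 H3 genes (26.7%) were listed. None of the 6 genes of the linker histone H1 had a listed window. By cluster, 16 of 55 genes of the large HIST1 cluster on chromosome 6, 7 of 12 of the HIST2 cluster and 2 of 3 of the HIST3 cluster on chromosome 1 were listed, and the single HIST4 gene on chromosome 12 was not. The listed genes ran on both strands, with 12 on plus and 13 on minus, and no histone window overlapped a listed window of another gene.

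The signal values of the 101 windows had a median of 1.79 (95% interval 1.65 to 2.01), a middle range from 1.37 to 2.35 and extremes of 0.90 and 4.88. All protein-coding windows had a median of 1.83, a middle range from 1.52 to 2.16 and extremes of 0.70 and 6.76. The medians were close and the histone values more spread, with quartiles farther out on both sides. On the lower side this depended on the genes with all windows at exactly 1.00, described below. Without them the quartiles were 1.575 and 2.42, so only the upper one lay farther out. A signal value of at least 2 was found in 41 of 101 histone windows (40.6%), beside 35.8% of all protein-coding windows. A q-value of at most 0.001 was found in 46 of 101 (45.5%), beside 43.6%. By class, the median signal value was 2.13 in the 16 H4 windows, 1.85 in the 47 H2B windows, 1.76 in the 20 H3 windows and 1.63 in the 18 H2A windows. Classes follow the listed symbol here and below, so 5 windows in the H2A gene HIST1H2AL that are listed under HIST1H2BN count as H2B. The 95% intervals of these medians were 1.65 to 2.59, 1.46 to 2.25, 1.00 to 2.28 and 1.23 to 1.95 in the same order, and neighbours in this order overlapped. Windows of 1 gene are not replicates, and the classes are not separated by these values.

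**Figure D1:**
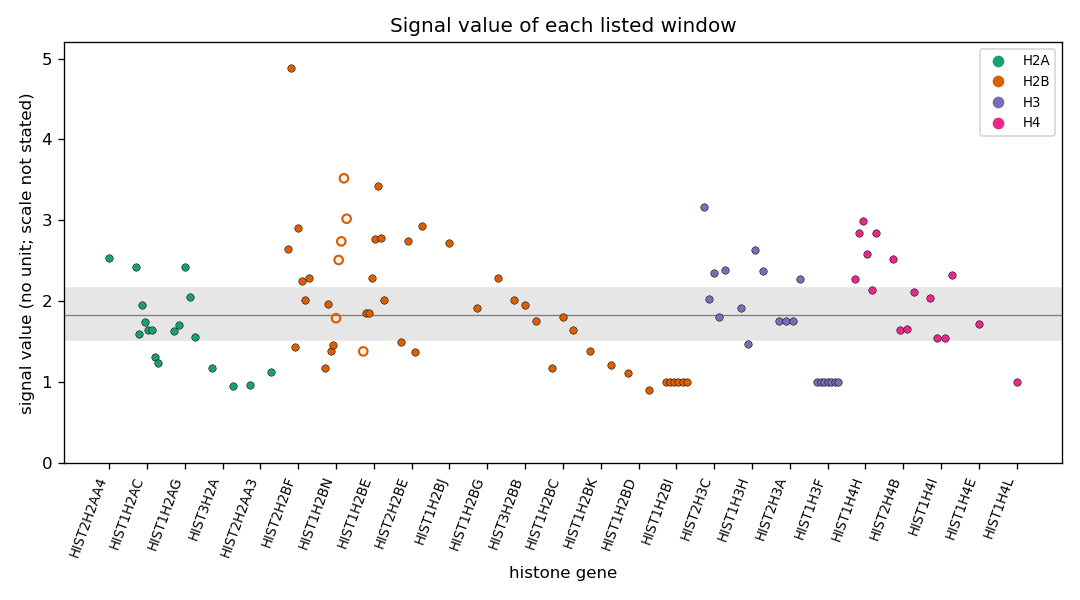
Signal value (vertical axis, no unit, scale not stated) of each of the 101 listed windows by histone gene, coloured by class, with open circles for the 6 windows outside the RefSeq interval of their gene and a grey line and band for the median (1.83) and the 25th to 75th percentile (1.52 to 2.16) of all protein-coding windows. HIST2H2BF holds the highest value at 4.88, and HIST1H2BI, HIST1H3F and HIST1H4L sit at exactly 1.00.

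In H2A, the partner of H2B in the nucleosome core, HIST1H2AC (ENSG00000180573, now H2AC6, chr6:26124172-26124690, plus strand) had the most windows of its class. Its 8 windows touched each other and had signal values of 2.42, 1.59, 1.95, 1.74, 1.65, 1.64, 1.31 and 1.23 from the 5′ to the 3′ side. The value was highest in the first of these windows and lowest in the last, with q-values from 2.5e-09 to 0.00466. HIST1H2AG (ENSG00000196787, now H2AC11, chr6:27133043-27133535, plus strand) had 5 windows with values of 1.63, 1.71, 2.42, 2.05 and 1.56, highest in the middle. The strongest window listed under an H2A symbol, at 2.53 (q = 0.000148), was the single window of HIST2H2AA4 (ENSG00000272196, now H2AC19, chr1:149851061-149851594, plus strand). It began at the start of the gene. Windows of up to 3.52 lay in the H2A gene HIST1H2AL but were listed under HIST1H2BN. HIST2H2AA3 (ENSG00000203812, now H2AC18), the duplicate of HIST2H2AA4, had 2 windows at 0.97 and 1.12, and HIST3H2A (ENSG00000181218, now H2AC25) had 2 at 1.18 and 0.95. By their strongest window, these last 2 genes stood above 0.599% and 0.928% of protein-coding genes. The upstream sequences of HIST2H2AA3 and HIST2H2AA4 were identical over 249 of 249 bases, which are not part of the RNA. How reads that match more than 1 histone gene were shared out is not given in the sources used here. The split between this pair, and between any histone genes with like RNA, is therefore uncertain.

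H2B, which pairs with H2A, held 47 of the 101 windows by listed symbol and the extremes at both ends. HIST2H2BF (ENSG00000203814, now H2BC18, chr1:149782689-149812370, minus strand) had the strongest histone window of the table, at 4.88 with a deposited p-value of 0, rank 24 in the table. From the 5′ to the 3′ side its 7 windows had values of 2.29, 2.01, 2.25, 2.91, 1.43, 4.88 and 2.65. The peak of the profile was a single window with a low one, at 1.43, directly before it. All 7 lay within 405.5 bp of the start of a gene that RefSeq draws over 29682 bp, with 18 windows (900 bp) tested. By its strongest window HIST2H2BF stood above 99.9% of protein-coding genes.

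HIST1H2BE (ENSG00000274290, now H2BC6, chr6:26183761-26184230, plus strand) had a strongest window of 3.42. Inside the gene its 7 windows had values of 1.85, 1.85, 2.29, 2.77, 3.42, 2.78 and 2.01, which climbed to the fifth (q = 5.4e-14) and declined after it. An eighth window at 1.38 lay at chr6:26172410-26172459, upstream of the gene and in no histone gene, and had a q-value of 0.0423. HIST2H2BE (ENSG00000184678, now H2BC21, chr1:149884459-149886682, minus strand) had values of 2.93, 1.37, 2.75 and 1.5 from its 5′ side, with strong and weak windows in turn. All 4 lay within 297.5 bp of the start of a gene of 2224 bp, with 29 windows (1450 bp) tested.

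HIST1H2BN (ENSG00000233822, now H2BC15, chr6:27838569-27839110, plus strand) reached the 9 windows that the table lists at most for a gene, and the order of its q-values implied 2 more that were not shown. In the gene itself, 4 windows had values of 1.17, 1.97, 1.39 and 1.46. The other 5, at 1.79, 2.51, 2.74, 3.52 and 3.02, lay within HIST1H2AL (now H2AC16, chr6:27865317-27865798, plus strand), an H2A gene on the same strand. Their q-values ran from 0.0341 to 5.43e-08. The strongest windows listed for this H2B gene were thus those in an H2A gene, which has no listed window under its own symbol. Counting them there would make 26 listed histone genes.

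The other H2B genes had 1 to 6 windows each. HIST1H2BJ (now H2BC11) had 1 at 2.72, HIST1H2BG (now H2BC8) had 2 at 2.29 and 1.91 from its 5′ side, and HIST3H2BB (now H2BC26) had 3 at 2.01, 1.95 and 1.76. HIST1H2BC (now H2BC4) had values of 1.64, 1.81 and 1.18 from its 5′ side. HIST1H2BK (now H2BC12) had 1.21 and 1.38 from its 5′ side, and HIST1H2BD (now H2BC5) had 1.11 and 0.90, the lowest histone window. Strong and weak H2B genes thus lay in the same cluster. HIST1H2BI (ENSG00000278588, now H2BC10) had 6 windows, all at exactly 1.00.

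H3 carries many of the marks by which chromatin is regulated, and 4 of its genes were listed. HIST2H3C (ENSG00000203811, now H3C14, chr1:149840687-149841208, minus strand) had values of 2.39, 1.81, 2.35, 2.03 and 3.16 in 5 touching windows from its 5′ side. The last of these, the strongest of the class (q = 2.45e-06), stood 344.5 bp from the start. HIST2H3A (ENSG00000203852, now H3C15, chr1:149852608-149853125, plus strand) had 3 windows with the same value of 1.76 and the same q-value of 0.0468, and another at 2.28. The upstream bases of HIST2H3A and HIST2H3C were identical over 246 of 246 compared. These bases are not part of the RNA, so whether reads of the pair can be separated was not tested. HIST1H3H (ENSG00000278828, now H3C10) had values of 1.92, 1.47, 2.63 and 2.37, and HIST1H3F (ENSG00000277775, now H3C7) had 7 windows at exactly 1.00.

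H4, the partner of H3, is encoded by many genes, nearly all for the same protein. HIST1H4H (ENSG00000158406, now H4C8, chr6:26285126-26285534, minus strand) led the class with 6 touching windows of 2.84, 2.14, 2.59, 2.99, 2.84 and 2.28 from its 5′ side. All 6 were above the protein-coding median of 1.83, although the lowest q-value was 0.000501. HIST2H4B (ENSG00000270276, now H4C15, chr1:149844488-149861240, minus strand) had 2.12, 1.66, 1.65 and 2.52 from its 5′ side. The first 3 of these had the lower values but also the lower q-values, at 9.05e-05, against 0.00441 for the last. The 250 bases upstream of HIST2H4B were identical with those of its copy HIST2H4A, which was not listed. HIST1H4I (ENSG00000276180, now H4C9) had 2.04, 1.55, 1.55 and 2.32 and lies inside the RefSeq interval of HIST1H2BK on the opposite strand. HIST1H4E (now H4C5) had 1 window at 1.72, and HIST1H4L (ENSG00000275126, now H4C13) had 1 at exactly 1.00.

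The 3 genes with values of exactly 1.00 stood apart from the other members. A value of 1.00 was listed for 121 windows of the table, beside 46 windows at 0.99 and 54 at 1.01. All windows were at this value in HIST1H2BI, HIST1H3F and HIST1H4L, which is 3 of 25 histone genes (12%), beside 0.212% of all listed genes (16 of 7550, of which 6 were protein-coding). The p-values of the 14 histone windows at 1.00 ran from 5.55e-16 to 0.0342 with a median of 3.22e-06. The 107 windows at 1.00 outside the histone genes had p-values from 0 to 0.0365 with a median of 0.00201. The 1093 windows with values from 0.9 to 1.1 other than 1.00 had a lowest p-value of 1.09e-06 and a median of 0.00193. Of the windows at 1.00, 5 histone windows (in HIST1H2BI and HIST1H4L) and 6 others lay below that lowest p-value, so this was not limited to histone genes. The 7 windows of HIST1H3F all lay within the range of those neighbours, and 3 of them were above the median. What the authors' tool writes as 1.00 is not stated, and its part in this pattern was not tested. Without these genes, 22 genes and 87 windows remained and the median signal value was 1.95.

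**Figure D2:**
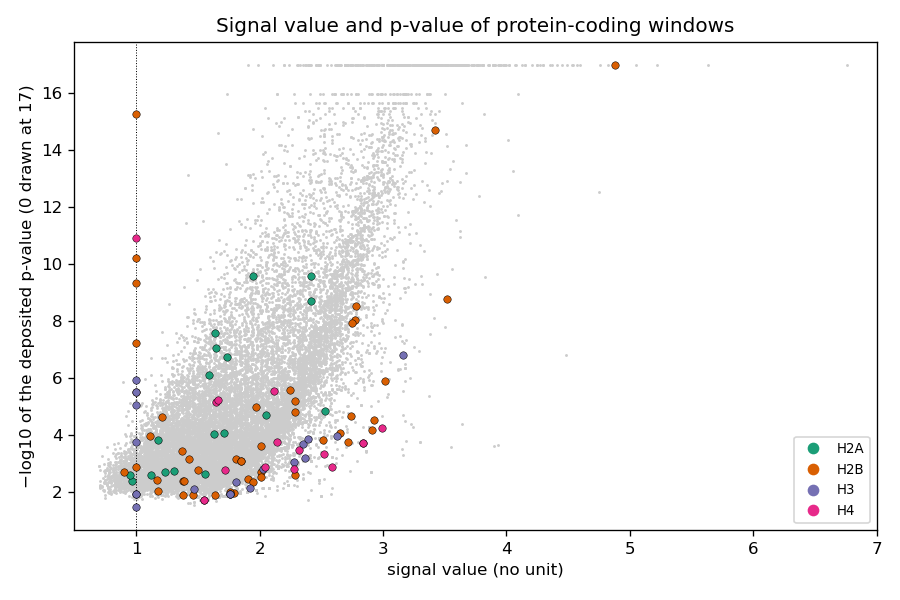
Signal value (horizontal axis, no unit) against −log10 of the deposited p-value (vertical axis, a p-value of 0 drawn at the top) for all protein-coding windows in grey and histone windows in colour by class, with a dotted line at a signal value of 1. The 14 histone windows on the line reach a p-value of 5.55e-16, and HIST2H2BF is at the top right with 4.88.

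Along the genes, 95 of 101 windows lay inside the RefSeq interval of their own gene. Their centres stood 25.5 to 519.5 bp from the 5′ end, with a median of 248.5 bp, and 94 lay within 500 bp. In the 19 genes shorter than 600 bp (387 to 542 bp), the 73 windows had a median relative position of 47.9% of the gene, with quartiles at 28.6% and 65.8%. By equal parts of the gene, 22 fell in the first, 35 in the middle and 16 in the last. The windows thus sat in the body of the short genes more often than toward the 3′ end, where the stem-loop is. Which windows were tested but not listed is unknown, so this is no measure of preference within the gene. In the 6 genes that RefSeq draws longer (2224 to 29682 bp), all 22 windows lay within 519.5 bp of the start. These genes were tested only in part. The tested windows covered 900 of 29682 bp in HIST2H2BF, 1950 of 16753 bp in HIST2H4B and 1450 of 2224 bp in HIST2H2BE. The lack of listed windows farther downstream is therefore no result about place.

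**Figure D3:**
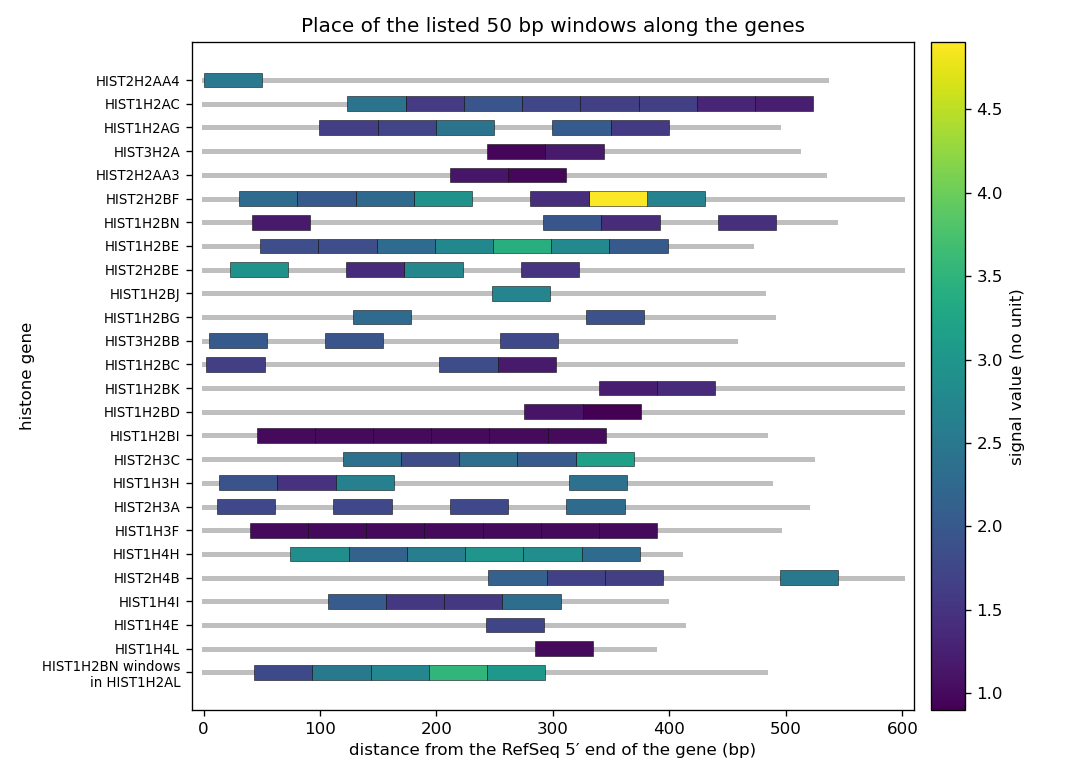
Listed 50 bp windows of the 25 genes by distance from the RefSeq 5′ end (horizontal axis, bp), coloured by signal value (no unit), with a grey line for the gene up to 600 bp and a last line for the 5 HIST1H2BN windows in HIST1H2AL. HIST1H2AC, HIST1H2BE, HIST1H2BI, HIST1H3F and HIST1H4H are covered by unbroken runs of windows. The listed windows of HIST2H2BF, HIST2H2BE and HIST1H2BK lie near the 5′ end of genes that were tested only in part.

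The number of windows tested in each gene was computed from its q-values and p-values, which fit an adjustment within the gene. The histone genes had a median of 13 tested windows (range 5 to 39) and 4 listed, beside 35 and 3 in all protein-coding genes. In all, 101 of 385 tested windows (26.2%) were listed, beside 8.60% in all protein-coding genes and 11.2% in the 3635 other protein-coding genes that also had 5 to 39 tested windows. By class the share was 40% in H3, 24.7% in H2B, 24.7% in H2A and 22.2% in H4. These shares are not at an equal number of windows, since the 3635 genes had a median of 23 tested windows against 13. With at least 1 listed window per gene, a shorter gene has a higher share by construction. At most 9 windows are listed per gene, which also holds down the share of genes with many tested windows. These reach 580 among all protein-coding genes and 39 among the histone genes. A single window was listed in 4 of 25 histone genes (16.0%), beside 29.0% of all protein-coding genes and 40.9% of the 3635. Without the 3 genes at exactly 1.00 the share of tested windows listed was 23.9%.

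The counts per gene showed a limit of the assignment. In 9 of the 19 genes under 600 bp, more windows were tested than can touch the RefSeq gene, by at least 74 of 265 windows in all. HIST1H2BN had 31 tested windows where 12 can fit, and HIST1H2BE had 27 where 11 can fit. These are the 2 genes whose listed windows also lay outside the RefSeq interval. The gene models behind the table are not given in the sources used here, and windows listed under 1 symbol can lie in another gene, as in HIST1H2BN.

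**Figure D4:**
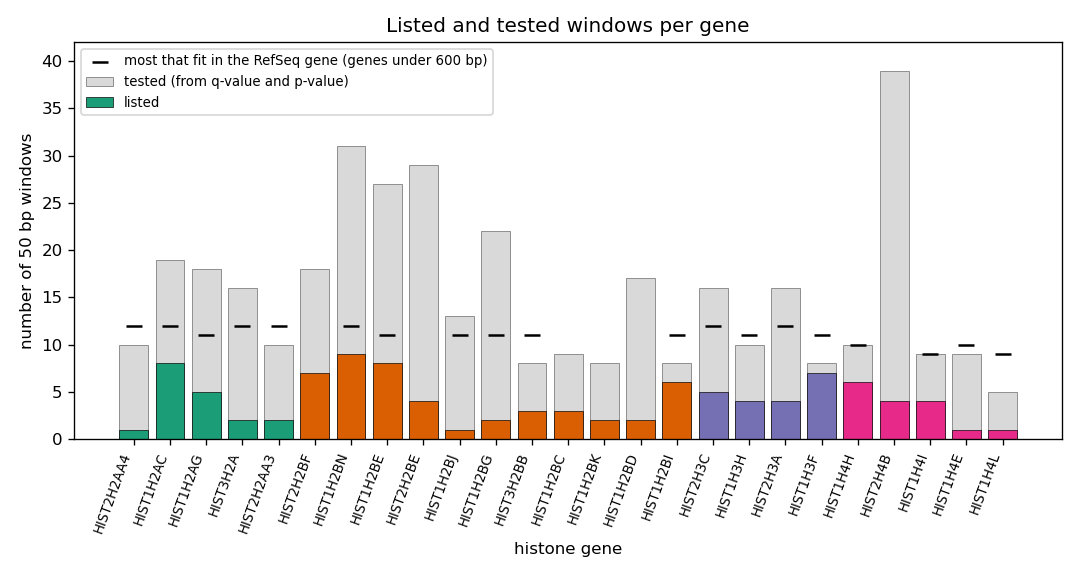
Number of 50 bp windows (vertical axis) tested (grey bars) and listed (bars coloured by class) in each histone gene, with a dash for the most that can touch the RefSeq gene where it is under 600 bp. HIST1H3F has 7 of 8 and HIST1H2BI 6 of 8 tested windows listed, and the grey bars of HIST1H2BN (31) and HIST1H2BE (27) pass their dashes (12 and 11).

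Many H2A and H2B genes stand head to head and share the stretch between their starts. Pairs were sought among the 66 genes with promoter sequence, which gives the strand, so pairs with one of the 5 other genes, such as HIST1H2AH near HIST1H2BK, are not counted. Of 12 such pairs within 500 bp, 1 of which joins an H3 and an H2B gene, both genes were listed in 3, 1 gene in 3 and neither in 6. The pairs of HIST1H2BF with HIST1H2AD and with the H3 gene HIST1H3D span the same 222 bases and are both among the 6. In HIST1H2BC and HIST1H2AC, whose starts are parted by 245 bases with 1 octamer in the sequence shown above, the strongest windows were 1.81 and 2.42. In HIST1H2BJ and HIST1H2AG, parted by 247 bases with 1 octamer, they were 2.72 and 2.42. In HIST3H2BB and HIST3H2A, parted by 229 bases with no octamer, they were 2.01 and 1.18. The H2A gene was thus the stronger in the first pair and the H2B gene in the others. In the 3 pairs with 1 listed gene, this was the H2B gene each time, namely HIST1H2BN beside HIST1H2AK, HIST1H2BG beside HIST1H2AE and HIST2H2BE beside HIST2H2AC. These H2B genes are among the 11 of 18 H2B genes listed (61.1%), against 5 of 17 H2A genes (29.4%), so the counts are not separate. Counting HIST1H2AL by place would add 1 listed H2A gene. Whether the pair counts differ from what the class shares alone would give was not tested.

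Replication-independent histone genes, which are expressed outside S phase and mostly make polyadenylated mRNAs, were listed in 8 of 13 cases (61.5%), beside 31.8% of all protein-coding genes. The median of their strongest windows was 2.08, against 2.32 in the replication-dependent genes and 2.23 in all protein-coding genes, and the medians over all windows were 1.78, 1.79 and 1.83. The H2A.Z genes H2AFV and H2AFZ, whose products mark promoters, had strongest windows at 3.20 and 1.83. The strongest window was 2.46 in CENPA, the centromere histone, 2.19 in H3F3B, which encodes H3.3, and 2.48 in its close relative H3F3C. It was 1.98 in H2AFY (macroH2A), 1.96 in H2AFX, which is phosphorylated at DNA breaks, and 1.27 in the linker histone gene H1FX. H2AFJ, H2AFY2, H3F3A, H1F0 and H2BFS were not listed. H2BFS is now H2BC12L, a name built on that of HIST1H2BK (now H2BC12), so its place among these genes is uncertain. Both kinds of histone gene therefore held windows on either side of the protein-coding median.

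Among 20 genes for the processing and turnover of histone mRNA, 13 (65.0%) were listed, beside 31.8% of all protein-coding genes, with strongest windows from 1.41 to 3.38. SLBP, which binds the stem-loop, and NPAT, the activator of histone transcription, were not listed, and neither were LSM11, CPSF1, CPSF2, CPSF3 and FIP1L1. The strongest was UPF1, a helicase needed for histone mRNA decay, with 8 windows up to 3.38. The uridylating enzymes TUT7 and TUT4 had strongest windows at 2.96 and 1.91, and the exonuclease gene ERI1, which trims the stem-loop end, at 2.63. In the U7 complex and its partners, ZNF473 had 2.45, CASP8AP2 had 1.96 and LSM10 had 1.41. In the cleavage machinery, CSTF2 had 2.42, WDR33 2.16, CPSF4 2.04, CSTF2T 1.63 and SYMPK 1.61, and MIF4GD, which links SLBP to translation, had 1.86.

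Histone chaperones, which carry histones to DNA, were listed in 11 of 17 cases (64.7%), beside 31.8% of all protein-coding genes. CHAF1A and RBBP4, subunits of the assembly factor CAF-1, had strongest windows at 2.51 and 2.82, and the third subunit gene CHAF1B was not listed. HIRA, UBN1 and CABIN1, which load H3.3, had 2.48, 2.11 and 1.91, and ATRX and DAXX, which also load H3.3, had 2.48 and 1.81. The FACT subunits SUPT16H and SSRP1 had 2.52 and 1.01, HJURP, the chaperone of CENPA, had 1.89, and the importin IPO4 had 1.74. ASF1A, ASF1B, NASP, NAP1L1 and NAP1L4 were not listed. The shares of these lists are not corrected for expression or length, which the peak table does not give, and nothing is read from them beyond the counts.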

How the data were processed

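RIP-seq libraries of IP-YTHDF1 and Input (2 each, called biological replicates in the labels) were grouped from the labels. Per the submitters' processing notes, STAR 2.7.3a and GRCh38 were used, while the peak caller and the treatment of multi-mapping reads are not given in the sources used here. The authors deposited 1 table of 26820 peaks (1 repeated and dropped), with a signal value and a rank, both treated as a score, and a p-value and a q-value (at most 0.05) per 50 bp window. No column named a library (0 left unused), so depth and replicate spread are unknown.

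Symbols were matched to RefSeq on GRCh38.p14 for 6372 of 6674 protein-coding symbols (95.5%) and for all 25 histone genes, and starts are counted from 1. Windows tested per gene were computed as the largest order of the p-value times q-value over p-value, for p-values above 1e-14. No estimate was obtained in 47 genes. The computation was tested on simulated data, with the true number recovered in every case. For listed genes with windows left out by the limit of 9, such as HIST1H2BN, it was not tested. The counts for all protein-coding genes, which reach 580, may rest in part on such genes. Intervals are Wilson for shares and by order statistics for medians. Motifs were searched in the 250 bases before each start, and sequences compared with shifts of up to 20 bases.

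Every listed histone gene could be named, and the other lists are given in full. Values are given for every window, although the plan set only a range and count for some H2B genes. The members and lists were chosen with earlier results of these data known. The sequence of the windows themselves was not analysed here. Alternatives were a q-value of at most 0.001, a signal value of at least 2, joined windows, counts per gene, the gene length for the tested windows, and removal of windows outside the gene or at exactly 1.00. The work was done in Python 3.11.15 with NumPy 2.4.6, pandas 2.3.3, matplotlib 3.10.9 and SciPy 1.17.1.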

Additional observations from a re-analysis of the deposited data

How the results depend on the processing

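With a q-value of at most 0.001, 14 histone genes and 46 windows were left in place of 25 and 101, the median signal value was 2.13 in place of 1.79, and 11.9% of tested windows were listed in place of 26.2%. With a signal value of at least 2, 16 genes and 41 windows were left. Joining touching windows gave 42 regions, and the strongest window of each gene gave a median of 2.32. Dividing gene length by the window width gave 5.55% of windows listed, because RefSeq draws 6 genes over long intervals. The remaining alternatives left the counts within 1.5 times and the medians inside their 95% intervals, with a median distance from the 5′ end of 236.5 to 272.5 bp against 248.5. Those that left out windows at exactly 1.00 or outside the gene, or counted windows in HIST1H2AL for that gene, were chosen after seeing the data. No paired analysis was possible because each window has a single value with no library named, and for the same reason no replicate could be left out. Depth is unknown, so whether an unlisted histone gene had too few reads cannot be said.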

Other observations

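The table also listed 1 window in each of 2 H2B pseudogenes of chromosome 1, which are not protein-coding and were left out of the counts. HIST2H2BA (chr1:121117011-121117060) had a signal value of 2.82 with a q-value of 0.0106. HIST2H2BC (chr1:149850749-149850798) had 2.55 with a q-value of 2.08e-06. Both values were above the protein-coding median of 1.83, and reads shared with the coding H2B genes cannot be told apart from reads of the pseudogenes in these data.

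In 11 histone windows the signal value and the p-value were both equal to those of another window of the same gene, as in HIST2H3A, where 3 windows shared a value of 1.76.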
